A study of Rattus norvegicus with 6 samples.

Results

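The Ca2+/calmodulin-dependent protein kinases (CaM kinases) are described here through the transcripts of 10 genes, taken from the 17066 genes of the deposited expression table by their symbols alone: Camk2a, Camk2b, Camk2d, Camk2g, Camk4, Camk1, Camk1d, Camk1g, Camkk1 and Camkk2. All 10 symbols were found once each, and all 10 were expressed highly enough to be tested. RNA-seq was performed on primary hippocampal neurons of Sprague-Dawley rats, cultured from embryos at embryonic day 18, infected with lentivirus at 5 to 6 days in vitro (DIV) and harvested at DIV 14. The virus of the control neurons expressed EGFP alone, that of the overexpressing neurons CCNY-WT-EGFP, and that of the knockdown neurons CCNY-shRNA-EGFP, so every library came from infected neurons, and EGFP was part of all 3 constructs. The constructs were carried by the lentiviral vector FUGW, and neither the share of infected cells nor a non-targeting shRNA control is named in the sources used here. Cyclin Y (CCNY) is a cyclin that is also expressed in neurons that no longer divide, and the comparisons ask which transcripts differ when its level is raised or lowered. Each condition had 2 libraries, and whether the 2 came from separate cultures is not given in the sources used here, so the p-values measure only the spread between these libraries, which may be technical.

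CaM kinases are switched on when Ca2+ enters a neuron and binds calmodulin. CaMKII, a multimeric kinase built from alpha, beta, gamma and delta subunits (Camk2a, Camk2b, Camk2g, Camk2d), is an abundant protein of excitatory synapses and is needed for hippocampal long-term potentiation, in part because it can phosphorylate itself and stay active after Ca2+ has fallen. CaMKI (among the members Camk1, Camk1d and Camk1g) and CaMKIV (Camk4) work as single subunits. They reach full activity only once a CaM kinase kinase (Camkk1, Camkk2) has phosphorylated them. CaMKIV is a mainly nuclear kinase known for phosphorylating the transcription factor CREB, CaMKI for its part in the growth of axons and dendrites, and CaMKK2 also for activating AMP-activated protein kinase.

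Expression is given as FPKM, a fragment count scaled to the length of the transcript and the number of mapped fragments, with 1 value per gene and library. Read counts are not in the table, so the depth is unknown; from the steps in which the values of weakly expressed genes rise, the depth relative to EGFP replicate 1 ranged from 0.818 to 1.33. The FPKM of Ccny was 43.1 and 42.3 with EGFP, 108 and 109 with CCNY-WT, and 5.98 and 6.19 with CCNY-shRNA, which follows the labels. In CCNY-WT replicate 1 the gene Bc1 alone took 15.1% of the summed FPKM, and the other 5 libraries list it at 0. Without the top gene of each library, the summed FPKM was 547887 in CCNY-WT replicate 1 and between 539257 and 561108 in the other 5. The cultures held transcripts of neurons and of astrocytes. The summed FPKM of 10 pan-neuronal markers was between 4667 and 4787 in the 6 libraries, and that of 10 microglial markers was at most 1.56, with Aif1 and Cx3cr1 at 0 in every library.

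Transcripts of CaMKII made up most of the family. In the EGFP libraries the 4 CaMKII genes gave 82.6% and 83.5% of the FPKM summed over the 10 genes, and this share was between 81.8% and 83.0% in the other 4 libraries. Camk2b and Camk2a led the order, and the next gene, Camk1, was 6.96 times lower than Camk2a in EGFP. The mean of Camk2b in EGFP was above that of 98.2% of the 10188 genes tested, and the mean of Camk2d, the lowest of the 10, was above that of 41.0%. The full order by EGFP mean was Camk2b, Camk2a, Camk1, Camk2g, Camk1g, Camkk1, Camk1d, Camk4, Camkk2 and Camk2d. Across all 6 libraries the ranges of neighbours in this order were separate down to Camk1g and Camkk1, and again between Camk1d and Camk4. They overlapped between Camkk1 and Camk1d, between Camk4 and Camkk2, and between Camkk2 and Camk2d, so these neighbours could not be ordered beyond the spread. The order is one of FPKM values only. The spread between libraries does not measure errors that differ between genes, such as those of the transcript length used.

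**Figure D1:**
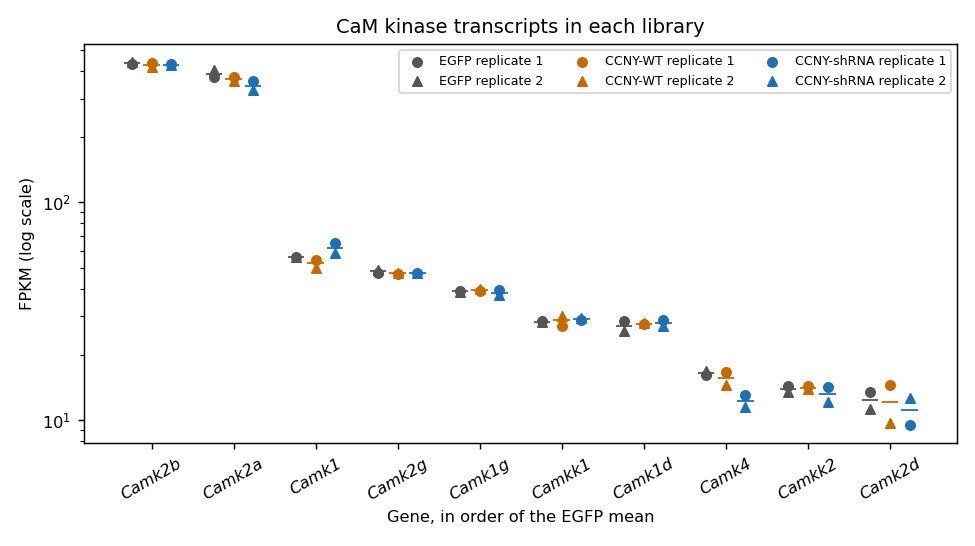
FPKM of the 10 CaM kinase genes on a log axis, in the order of the EGFP mean, with EGFP, CCNY-WT and CCNY-shRNA side by side. Circles are replicate 1, triangles replicate 2 and short lines the means of 2 libraries. Camk2b (419 to 441 over the 6 libraries) and Camk2a (327 to 405) stand far above the other 8 genes, which lie between 9.45 and 64.7.

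Among the CaMKII subunits, the alpha subunit had the largest fitted difference in the knockdown, which did not pass the test. That of the delta subunit was of similar size with a wide interval, so alpha and delta could not be ranked. The conditions differed less in the beta and gamma subunits. The FPKM of Camk2a was 376 and 405 with EGFP, 379 and 361 with CCNY-WT, and 361 and 327 with CCNY-shRNA. Both knockdown libraries lay below both EGFP libraries, while CCNY-WT overlapped with EGFP. The mean of Camk2a was 391 ± 20.1 (SD, n = 2) in EGFP and 344 ± 23.9 (n = 2) in CCNY-shRNA, a log2 change of -0.18 (standard error 0.0698, 95% interval -0.35 to -0.02). This did not pass the threshold after adjustment over all genes tested (limma adjusted p = 0.214, unadjusted p = 0.0302).

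Camk2b, the beta subunit, which ties the holoenzyme to actin filaments, had the highest FPKM of the family and was among its steadiest members. It had an FPKM of 433 and 441 with EGFP, 437 and 419 with CCNY-WT, and 431 and 428 with CCNY-shRNA. The highest of the 6 libraries was 1.05 times the lowest. Its level in CCNY-shRNA differed from EGFP by -1.70%, with a 95% interval of -9.97% to 7.33%. In CCNY-WT the difference was -2.07% (95% interval -10.3% to 6.92%). Camk2g, the gamma subunit, was steady too, with 47.4 and 48.9 with EGFP, 46.8 and 47.6 with CCNY-WT, and 47.4 and 47.3 with CCNY-shRNA. The knockdown libraries lay below both EGFP libraries, at 47.42 against 47.43 for the nearest pair, and the fitted difference was -1.67% (95% interval -10.3% to 7.75%). Camk2d, the delta subunit, which is best known from heart muscle, showed the opposite picture, since its replicates differed more than its conditions. Its FPKM was 13.4 and 11.2 with EGFP, 14.4 and 9.66 with CCNY-WT, and 9.45 and 12.7 with CCNY-shRNA, so that all 3 conditions overlapped. The fitted difference of Camk2d in the knockdown was -10.8%, beside -12.0% for Camk2a. It could be placed only between -37.0% and 26.4% (95% interval).

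The ratio of Camk2a to Camk2b transcripts does not depend on how a library is scaled. It was 0.870 and 0.918 with EGFP, 0.866 and 0.862 with CCNY-WT, and 0.838 and 0.764 with CCNY-shRNA. Both libraries of each CCNY condition were below both EGFP libraries, and those of CCNY-shRNA were the lowest. As a share of the FPKM summed over the 4 subunits, Camk2a was 43.3% and 44.7% with EGFP, 43.2% and 43.1% with CCNY-WT, and 42.5% and 40.1% with CCNY-shRNA. The mean share was 41.3% ± 1.71 (SD, n = 2) in CCNY-shRNA, 43.2% ± 0.0296 (n = 2) in CCNY-WT and 44.0% ± 1.002 (n = 2) in EGFP, which are differences from EGFP of -2.65 and -0.822 percentage points. With 2 libraries against 2, a two-sided exact permutation test cannot give a p below 0.333, and both differences gave this p. The share of Camk2b was 51.6% ± 1.25 (SD, n = 2) in CCNY-shRNA against 49.2% ± 0.745 (n = 2) in EGFP, while Camk2g held 5.34% to 5.80% and Camk2d 1.11% to 1.65% in the 6 libraries.

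**Figure D2:**
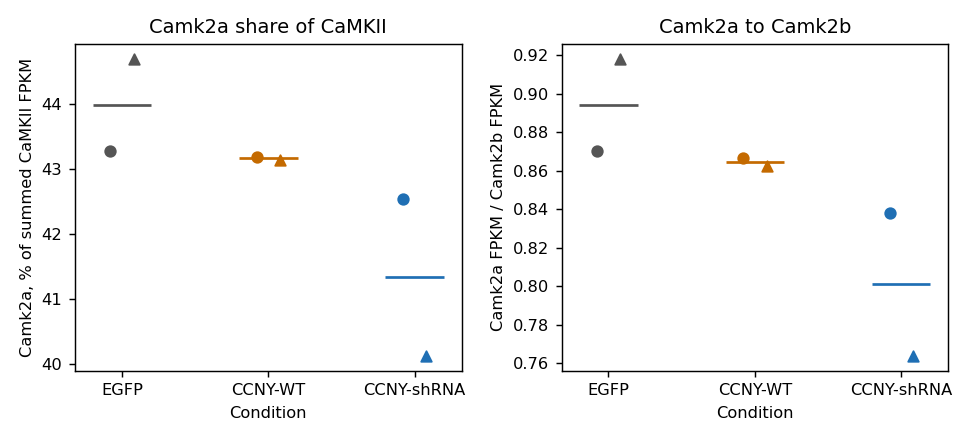
Left, Camk2a as a percentage of the summed FPKM of Camk2a, Camk2b, Camk2d and Camk2g; right, the ratio of Camk2a to Camk2b FPKM; neither axis starts at 0. Circles are replicate 1, triangles replicate 2 and lines the means of 2 libraries, and the CCNY-shRNA libraries (42.5% and 40.1%) lie below the EGFP libraries (43.3% and 44.7%).

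Camk4, which encodes the nuclear CaMKIV, had the largest difference of the family in the knockdown. Its FPKM was 16.0 and 16.8 with EGFP, 16.7 and 14.6 with CCNY-WT, and 13.1 and 11.5 with CCNY-shRNA. The knockdown libraries were both below all 4 other libraries, and CCNY-WT overlapped with EGFP. The log2 change of Camk4 in CCNY-shRNA was -0.42 (standard error 0.114), which is a difference of -25.4% with a 95% interval of -37.9% to -10.5%. After adjustment over all genes tested it did not pass the threshold (limma adjusted p = 0.120, unadjusted p = 0.00608). Set directly against CCNY-WT, the knockdown difference of Camk4 was -0.35 (standard error 0.114), with an adjusted p of 0.304 by limma. In CCNY-WT the log2 change from EGFP was -0.08, with a 95% interval of -0.34 to 0.19. In the order of the 10 genes Camk4 stood above Camkk2 in EGFP and below it in CCNY-shRNA, although in CCNY-shRNA the ranges of both genes overlapped.

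The 3 CaMKI genes among the members did not share a direction. Camk1, which encodes CaMKI alpha, had an FPKM of 56.2 and 56.0 with EGFP, 54.6 and 50.2 with CCNY-WT, and 64.7 and 58.7 with CCNY-shRNA. It was thus the only member whose knockdown libraries lay above all EGFP libraries while its CCNY-WT libraries lay below them. The log2 change of Camk1 was 0.13 for the knockdown (standard error 0.0715, adjusted p by limma 0.358) and -0.10 for the overexpression (adjusted p by limma 0.826). Between CCNY-shRNA and CCNY-WT directly it was 0.23 (standard error 0.0715, 95% interval 0.07 to 0.40), with a limma adjusted p of 0.277 and an unadjusted p of 0.0115.

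Camk1d and Camk1g, the delta and gamma forms of CaMKI, stayed close to EGFP. Camk1d had 28.4 and 25.7 with EGFP, 27.7 and 27.8 with CCNY-WT, and 28.7 and 26.9 with CCNY-shRNA. Camk1g, whose product is anchored to membranes by a lipid, had 39.3 and 38.9 with EGFP, 39.3 and 39.9 with CCNY-WT, and 39.4 and 37.6 with CCNY-shRNA. In CCNY-WT both Camk1g libraries were above both EGFP libraries, at 39.35 against 39.33 for the nearest pair. The difference in means was 1.30% of the EGFP level. The 95% intervals of the change in CCNY-shRNA ran from -9.42% to 16.8% for Camk1d and from -10.8% to 8.68% for Camk1g.

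The upstream kinases had small differences, none of which passed the test. Camkk1 had an FPKM of 28.5 and 28.2 with EGFP, 27.2 and 30.2 with CCNY-WT, and 28.8 and 29.6 with CCNY-shRNA. Camkk2 had 14.4 and 13.5 with EGFP, 14.3 and 13.8 with CCNY-WT, and 14.1 and 12.1 with CCNY-shRNA. Camkk1 was thus higher in both knockdown libraries than in EGFP, and Camkk2 overlapped in all conditions. The fitted change in CCNY-shRNA was 0.04 for Camkk1 (95% interval -0.14 to 0.22) and -0.09 for Camkk2 (95% interval -0.34 to 0.17), and the Camkk1 transcript was between 1.90 and 2.44 times that of Camkk2 in every library.

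**Figure D3:**
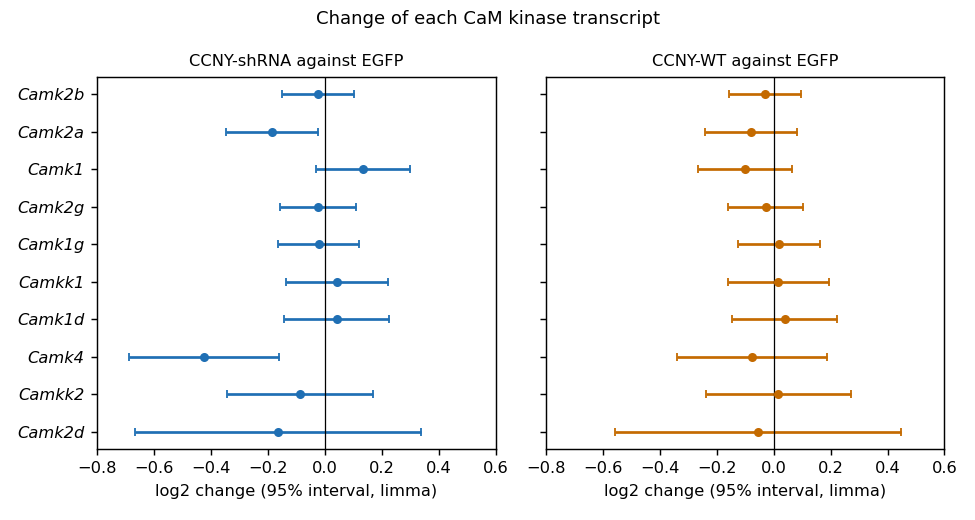
Log2 change of each CaM kinase gene in CCNY-shRNA (left) and CCNY-WT (right) against EGFP, with 95% intervals from limma, which takes the spread from all 6 libraries. In CCNY-shRNA the intervals of Camk4 (-0.69 to -0.16) and Camk2a (-0.35 to -0.02) lie below 0 before any adjustment for the number of genes, and in CCNY-WT all 10 intervals include 0.

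Over the family, 0 of 10 genes passed a limma adjusted p of 0.05 in CCNY-shRNA against EGFP, where 0.746% of all genes tested passed. At an unadjusted p under 0.05 there were 2, Camk2a and Camk4, against 18.6% of all genes tested. With 10 genes this share is near the background. In CCNY-WT against EGFP, 0 of 10 passed the adjusted threshold (background 0.00982%) and 0 had an unadjusted p under 0.05 (background 6.83%). Between CCNY-shRNA and CCNY-WT, 0 of 10 passed (background 0.216%), and Camk1 and Camk4 had an unadjusted p under 0.05 (background 12.2%). By the size limits that the study set for a change in mean log2FPKM, Camk4 alone was lower by 0.33 or more in CCNY-shRNA, where 7.59% of all genes were, and 0 of 10 differed by 0.3 or more in CCNY-WT, where 8.35% did. A size limit alone is no test, and the selection with cuffdiff that the study's methods also name was not repeated here. The groups did not overlap for 6 of the 10 genes in CCNY-shRNA (4 lower, 2 higher), where the background was 48.4% (24.5% lower and 23.9% higher), and for 2 of the 10 in CCNY-WT, where it was 39.5%. The median absolute log2 change of the family was 0.07 in CCNY-shRNA and 0.03 in CCNY-WT, beside 0.13 and 0.09 over all genes tested. Both comparisons share the 2 EGFP libraries.

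Cell type markers were compared between the knockdown and EGFP libraries as well, with no test of a list as a whole. The median log2 change in CCNY-shRNA was -0.16 over 7 tested markers of excitatory neurons (3 higher), -0.09 over 11 of inhibitory neurons (2 higher), -0.16 over 8 of astrocytes (2 higher), -0.16 over 6 of the oligodendrocyte lineage (1 higher) and -0.03 over 10 pan-neuronal markers (4 higher), beside 50.2% higher of all genes tested. The summed FPKM of 12 of 12 listed inhibitory neuron markers was 2244 and 2355 with EGFP, 2262 and 2289 with CCNY-WT, and 1944 and 2110 with CCNY-shRNA. This is a sum in which Sst, the neuropeptide somatostatin, had the largest value (1256 and 1311 with EGFP, 1043 and 1158 with CCNY-shRNA). No inhibitory neuron marker was at 0 in all 6 libraries, and Pvalb was at 0 in 3 of them. That of 8 of 10 astrocyte markers was 537 and 577 with EGFP, 570 and 565 with CCNY-WT, and 470 and 542 with CCNY-shRNA, so that this sum overlapped between EGFP and CCNY-shRNA. Of the 11 inhibitory neuron markers tested, 1 fell past the adjusted threshold in CCNY-shRNA, where 0.746% of all genes tested passed in either direction. This was Gad2, an enzyme of GABA synthesis, named after its values were seen. It was at 170 and 173 in EGFP against 129 in each knockdown library (log2 change -0.41, limma adjusted p = 0.0226). Gad1, another enzyme of GABA synthesis, was at 189 and 188 in EGFP against 183 and 187 in CCNY-shRNA (log2 change -0.03). The sum of 8 of 10 markers of excitatory neurons, the cells known for CaMKII alpha, was 1218 and 1238 with EGFP, 1175 and 1188 with CCNY-WT, and 1210 and 1230 with CCNY-shRNA. Most of this sum was Slc17a7, a vesicular glutamate transporter, at 894 and 936 with EGFP against 916 and 944 with CCNY-shRNA (a difference of 0.02 on the log2 scale). Of the other excitatory markers, Neurod6 differed by -0.20, Baiap2 by -0.17 and Neurod2 by 0.40 in CCNY-shRNA, each with an unadjusted p under 0.05 and none past limma's adjusted threshold. The sum of 10 oligodendrocyte lineage markers was 55.0 to 56.0 in EGFP, 52.9 to 57.7 in CCNY-WT and 47.5 to 49.5 in CCNY-shRNA, with Sox10 at 0 in every library. The sum of 9 of 10 vascular and fibroblast markers was 64.6 to 72.9, 75.4 to 75.5 and 63.7 to 67.1 in the same order, with Cldn5 at 0 in every library. None of the tested markers of the 6 other lists passed limma's adjusted threshold in CCNY-shRNA against EGFP. In bulk RNA, fewer cells of a type and less RNA per cell cannot be told apart, and the part of these differences in the values of Camk2a and Camk4 was not tested.

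Ca2+ reaches the CaM kinases through calmodulin. The genes described with this step were Calm2 and Calm3, which encode calmodulin, and the calmodulin-binding proteins Nrgn, Gap43 and Pcp4. The list also held subunits of calcineurin, a phosphatase that calmodulin activates as well, so it is wider than the input to the kinases. Of these 9 genes, 8 were higher in the knockdown, beside 50.2% of all genes tested. The median log2 change was 0.12, beside 0.00 over all genes tested. Limma's adjusted threshold was passed by 0, and 4 had an unadjusted p under 0.05, beside 18.6% of all genes. The largest difference was that of Calm3. Its FPKM was 1348 and 1268 with EGFP, 1472 and 1566 with CCNY-WT, and 1597 and 1639 with CCNY-shRNA. All 4 libraries with CCNY constructs were above both EGFP libraries, by 0.31 on the log2 scale for the knockdown (standard error 0.0758, adjusted p by limma 0.0992) and by 0.22 for the overexpression (adjusted p by limma 0.725).

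The list of CaM kinase inhibitors and phosphatases held 10 genes, of which 0 passed the adjusted threshold in either condition. Of these, 1 had an unadjusted p under 0.05 in CCNY-shRNA (18.6% of all genes) and 0 in CCNY-WT (6.83% of all genes). Camk2n1 and Camk2n2, small proteins that bind and inhibit CaMKII, lay between Camk1 and Camk2b in FPKM. Camk2n1 had an FPKM of 341 and 317 with EGFP, 322 and 281 with CCNY-WT, and 354 and 358 with CCNY-shRNA. Camk2n2 had 219 and 204 with EGFP, 203 and 210 with CCNY-WT, and 164 and 216 with CCNY-shRNA, so that its knockdown replicates spanned a wider range than the other libraries. The largest differences of this list were those of Ppp1r1b (DARPP-32, an inhibitor of protein phosphatase 1) in CCNY-shRNA, at 0.27 (standard error 0.192), and of Ppp1r9b (spinophilin, which anchors protein phosphatase 1 in spines) in CCNY-WT, at 0.15 (standard error 0.0679).

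Among 11 related CaM-regulated and CaMK-like kinases that could be tested, 0 passed in either condition (limma, adjusted). An unadjusted p below 0.05 was reached by 2 in CCNY-shRNA (18.6% of all genes) and by 1 in CCNY-WT (6.83% of all genes). Of the 11, 6 were higher in CCNY-shRNA (50.2% of all genes). Pnck, which encodes CaMKI beta but is not among the 10 members, had an FPKM of 34.9 and 42.2 with EGFP. It had 39.6 and 41.8 with CCNY-WT, and 34.1 and 29.9 with CCNY-shRNA. Its log2 change in CCNY-shRNA was -0.27 against EGFP (limma adjusted p = 0.230) and -0.35 against CCNY-WT (limma adjusted p = 0.271). Dclk2, a doublecortin-like kinase that binds microtubules, had the largest difference in CCNY-WT, with an FPKM of 34.6 and 37.3 with EGFP, 43.4 and 42.1 with CCNY-WT, and 41.0 and 38.9 with CCNY-shRNA (0.25 on the log2 scale for the overexpression, standard error 0.0684, adjusted p by limma 0.670). In CCNY-shRNA the largest difference was that of Dapk2, a death-associated protein kinase, which reached 1 FPKM only in the knockdown libraries and so passed the filter through them. Its EGFP libraries had 0.308 and 0.423, its CCNY-WT libraries 0.466 and 0.496, and its CCNY-shRNA libraries 1.13 and 1.47. Since the filter and the floor set this difference, it is given as values and its test result is not interpreted. Dapk2 is still counted among the 11 kinases tested and the 6 that were higher in CCNY-shRNA. It is not among the 2 with an unadjusted p below 0.05. The plot of log2 changes by pathway list, which shows each tested gene, includes it as well.

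Targets and partners of CaMKII at the synapse had a median log2 change of -0.10 in the knockdown. Of 18 listed genes 17 could be tested, and Gria1, an AMPA receptor subunit, is absent from the deposited data under this symbol. Of the 17 genes tested, 5 were higher in CCNY-shRNA, where 50.2% of all genes tested were higher. An unadjusted p under 0.05 was reached by 8, where 18.6% of all genes reached it, while 0 passed limma's adjusted threshold. Grin2a, an NMDA receptor subunit, had the largest difference, with an FPKM of 21.5 and 21.0 with EGFP, 20.2 and 18.6 with CCNY-WT, and 17.5 and 14.8 with CCNY-shRNA (-0.40 on the log2 scale for the knockdown, standard error 0.105, adjusted p by limma 0.112). The knockdown libraries lay below all others for this gene, as for Camk4. In CCNY-WT, 6 of the 17 were higher than in EGFP (51.4% of all genes), 3 had an unadjusted p under 0.05 (6.83% of all genes) and 0 passed. Shank3, a scaffold protein of the postsynaptic density, differed most there. It had 46.3 in both EGFP libraries, 56.0 and 54.8 with CCNY-WT, and 55.4 and 53.3 with CCNY-shRNA (0.26 on the log2 scale for the overexpression, standard error 0.0569, adjusted p by limma 0.507).

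Downstream of CaMKK, CaMKI and CaMKIV, 16 of 20 listed genes could be tested. In CCNY-shRNA 6 of the 16 were higher (50.2% of all genes), the median log2 change was -0.06 and 2 had an unadjusted p under 0.05 (18.6% of all genes). In CCNY-WT 6 were higher (51.4% of all genes) and 0 had an unadjusted p under 0.05 (6.83% of all genes). None of the 16 passed limma's adjusted threshold in either condition. Mef2d, an activity-dependent transcription factor, had 26.6 and 27.2 with EGFP, 25.3 and 26.3 with CCNY-WT, and 23.7 and 21.0 with CCNY-shRNA (-0.27 on the log2 scale for the knockdown, standard error 0.0835, adjusted p by limma 0.152). Creb1, which encodes CREB itself, had the largest difference in CCNY-WT (log2 change 0.28, standard error 0.315), but its EGFP libraries were at 9.31 and 4.27, on either side of the other 4, which lay between 7.07 and 8.23.

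CREB target genes had the lowest median of the 6 pathway lists in the knockdown, a log2 change of -0.14. Of 15 tested, 3 were higher in CCNY-shRNA (50.2% of all genes), 5 had an unadjusted p under 0.05 (18.6% of all genes) and 0 passed limma's adjusted threshold. For 10 of the 15, both knockdown libraries were below both EGFP libraries, where 24.5% of all genes tested were. For 0 of the 15 both were above, where 23.9% of all genes were. Such separation was not particular to this list. Among the 17 CaMKII targets and partners, 10 were below and 4 above in this way. Among the 9 genes of the calmodulin list, 1 was below and 5 were above. Nr4a1, an immediate early gene that encodes a nuclear receptor, had an FPKM of 14.2 and 14.7 with EGFP, 12.3 and 10.8 with CCNY-WT, and 11.2 and 9.46 with CCNY-shRNA (-0.49 on the log2 scale for the knockdown, standard error 0.125, adjusted p by limma 0.105). The CCNY-WT libraries were below EGFP as well for this gene. Fosb, a component of the AP-1 transcription factor, had the largest difference in CCNY-WT, with 3.55 and 3.30 with EGFP, 4.53 and 5.26 with CCNY-WT, and 3.60 and 3.12 with CCNY-shRNA (0.51 on the log2 scale for the overexpression, standard error 0.170, adjusted p by limma 0.725). In CCNY-WT 7 of the 15 were higher (51.4% of all genes), 3 had an unadjusted p under 0.05 (6.83% of all genes) and 0 passed. Bdnf, a growth factor known as a CREB target, is listed at 0 in all 6 libraries and so did not enter the fit. Whether its transcripts were absent or were missed in the quantification was not tested.

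**Figure D4:**
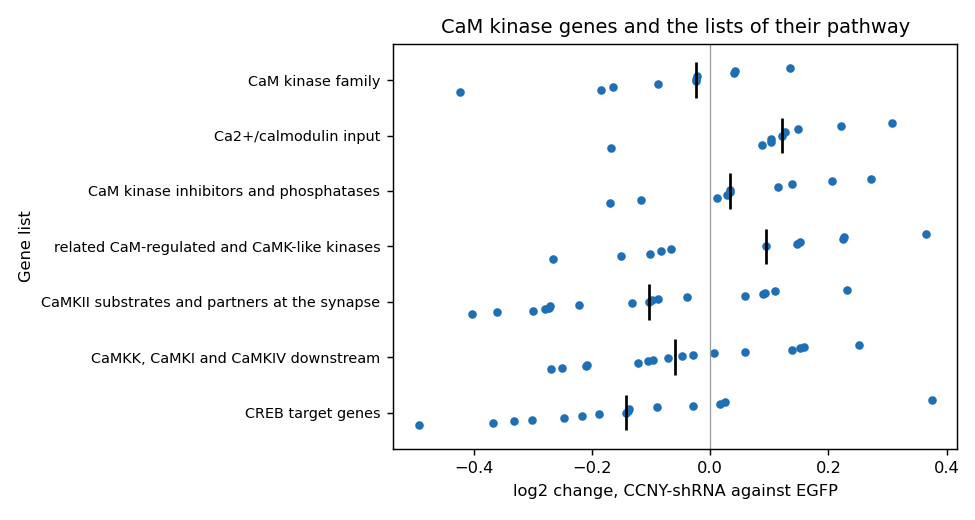
Log2 change in CCNY-shRNA against EGFP for each tested gene of the CaM kinase family and of 6 lists of its pathway, each point 1 gene and each vertical line the median of its list. The medians run from 0.12 for Ca2+/calmodulin input to -0.14 for CREB target genes, and no point passed limma's adjusted threshold.

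Genes whose pattern over the 6 libraries was most like that of Camk2a were Negr1, a cell adhesion protein of neurons (Pearson r = 0.996), Abca8a, a lipid transporter (r = 0.995), and Scn2a, a sodium channel of axons (r = 0.993). These r values describe 6 libraries that share their scaling, and the 3 genes are the highest of all genes tested, so no test was made. Scn2a, for example, had an FPKM of 92.6 and 99.7 with EGFP, 94.7 and 89.4 with CCNY-WT, and 87.8 and 79.9 with CCNY-shRNA. As with Camk2a, EGFP replicate 2 was the highest library and CCNY-shRNA replicate 2 the lowest.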

How the data were processed

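RNA-seq of cultured rat hippocampal neurons was analysed from 6 libraries (EGFP, CCNY-WT and CCNY-shRNA, 2 apiece), grouped by the titles of the samples. The deposited values are FPKM, which the authors computed with Cufflinks from paired-end reads aligned to rn4 with TopHat2. The submitters' processing notes list TopHat2 2.0, Bowtie2 2.1.0, Cufflinks 2.2.1, SAMtools 0.1.19 and R 3.1.0. The annotation, the use of strand and any further scaling between libraries are not given in the sources used here. FPKM hides read counts, so counting error could not be computed, and 1 value per gene does not tell transcript isoforms apart.

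Values below 1 FPKM were set to 1 before taking log2, following the methods of the study. Differences were tested with limma 3.58.1 in R 4.3.3 (lmFit, contrasts.fit and eBayes with trend = TRUE). The fit took in all 6 libraries and the 10188 genes that reached 1 FPKM in 2 libraries or more, with Benjamini-Hochberg adjustment over all of them and a threshold of 0.05. The fit was run on simulated data whose added changes were larger than any that the fit of all 6 libraries gave for the members. That run does not bear on whether differences as small as theirs could be found. Python 3.11.15 with pandas 2.3.3, numpy 2.4.6, scipy 1.17.1 and matplotlib 3.10.9 served for tables, exact tests and figures. Relative depth was the most frequent ratio of FPKM values between 2 libraries among genes under 0.3 FPKM. Shares and ratios were compared with exact permutation tests.

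The members, the 6 pathway lists and the 7 marker lists were chosen from general knowledge with earlier results of these data known. A gene of the calmodulin list is not reported here, and the counts of that list leave it out. Named are the 10 members, Ccny and the 3 genes most like Camk2a in pattern. Of each pathway list, the gene with the largest difference from EGFP in each condition is named, and any past the threshold. Camk2n1, Camk2n2, Pnck, Bdnf, Bc1, Gad1, Gad2, Sst, Pvalb, Slc17a7, Neurod2, Neurod6 and Baiap2 were added after their values were seen. Gria1 is named only as absent. Alternatives covered the offset, the filter, the scaling, how the spread was estimated, a replicate block and leaving out each library. Gene coordinates and sequences were not used here.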

Additional observations from a re-analysis of the deposited data

How the results depend on the processing

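No CaM kinase gene passed an adjusted p of 0.05 in any of the 3 comparisons under any alternative, in limma fits that changed the offset, the filter, the scaling or the estimate of the spread, or left out a library. A lone remaining library was assumed to vary like the other groups. The background moved more: between alternatives, 1 to 108 genes passed in CCNY-shRNA against EGFP (76 as reported), 0 to 3 in CCNY-WT against EGFP (1 as reported) and 1 to 32 between CCNY-shRNA and CCNY-WT (22 as reported). The adjusted p in CCNY-shRNA against EGFP ranged from 0.105 to 0.434 for Camk4 (log2 change -0.52 to -0.33) and from 0.134 to 0.620 for Camk2a (-0.26 to -0.11). The Camk2a share of CaMKII differed by -3.86 to -1.44 percentage points in CCNY-shRNA and by -1.53 to -0.114 in CCNY-WT when 1 library was left out. Without EGFP replicate 2 the CCNY-WT difference was -0.114, so that its size rests on this library.

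Same-numbered libraries did not deviate together (correlations of their deviations 0.0530 between EGFP and CCNY-WT, 0.0377 between EGFP and CCNY-shRNA and 0.0538 between CCNY-WT and CCNY-shRNA), so the numbers were not taken as pairs. With the replicate block 0 CaM kinase genes passed in each comparison, and 39 of all genes passed in CCNY-shRNA against EGFP in place of 76.

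The sign turned in 22 recomputed values of single members and in none of the other 428. Many of the 428 could not turn. The filter, the estimate of the spread, the replicate block and leaving out a library of the third condition do not alter a log2 change. The 428 are therefore no measure of stability. The 22 were differences near 0 or within the spread of the replicates, and the cause was not tested. With quantile normalization Camk2b differed by -0.0083 between CCNY-shRNA and CCNY-WT. The other 21 came from leaving out 1 library. The log2 change in CCNY-WT against EGFP then ran from -0.061 to 0.00047 for Camk2b, -0.35 to 0.23 for Camk2d, -0.033 to 0.11 for Camk1d, -0.18 to 0.024 for Camk4, -0.061 to 0.092 for Camkk1 and -0.029 to 0.062 for Camkk2. In CCNY-shRNA against EGFP it ran from -0.38 to 0.047 for Camk2d, -0.030 to 0.11 for Camk1d, -0.056 to 0.011 for Camk1g and -0.20 to 0.021 for Camkk2. Between CCNY-shRNA and CCNY-WT it ran from -0.025 to 0.036 for Camk2b, -0.40 to 0.18 for Camk2d, -0.0075 to 0.016 for Camk2g, -0.042 to 0.048 for Camk1d, -0.050 to 0.10 for Camkk1 and -0.21 to 0.0051 for Camkk2. Read counts are hidden in FPKM, so how far depth limits each value is unknown, and 2 libraries a condition limit every test.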
